A study of Mus musculus with 50 samples.

Results

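The genes described here are 49 genes of DNA replication and S phase, chosen by name for their known roles in copying the genome and measured in sorted hippocampal microglia of 50 mice. All 49 names were found among the 53700 genes of the count files. The tests covered the 16696 genes that reached 1 CPM (read counts scaled to a common library size) in more than 2 mice, and all 49 members were among them. The mice were C57BL/6J males, their microglia were gated as CD45int and CD11b+, and the poly-A RNA of every mouse formed its own library. Control mice (CTR) were reared with standard bedding and nesting material. Mice exposed to early-life stress (ELS) had limited bedding and nesting material from postnatal day (P) 2 to 9. The P9-CTR (n = 12) and P9-ELS (n = 13) mice were taken at P9 without an injection. The adult mice were 200 days old (P200) and received an intraperitoneal injection of PBS or of 1 mg/kg LPS (lipopolysaccharide of the bacterial outer membrane, which triggers an innate immune reaction), 3 hours before they were sacrificed. The adult groups were CTR-PBS (n = 7), ELS-PBS (n = 6), CTR-LPS (n = 7) and ELS-LPS (n = 5). The number before the point in each mouse label was taken as the nest, which the labels do not define. Taken so, the P9 mice came from 5 CTR and 4 ELS nests and each adult group from 5 nests. Within an age every such nest belonged to 1 early-life condition, and mice of a group are then not all independent. Myelin was removed with Percoll from adult brains but not from P9 brains, and this step cannot be told apart from age.

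DNA replication starts at origins that are bound by the origin recognition complex (ORC). Cdc6 and Cdt1 then load the ring-shaped MCM2-7 helicase, and Cdc45 and the GINS complex turn the ring into an active helicase at the start of S phase. Polymerase alpha with its primase lays down the primers, polymerases epsilon and delta extend them on the sliding clamp Pcna, and further enzymes supply the deoxynucleotides and join the fragments of the lagging strand. Most of these genes are transcribed at the passage from G1 to S phase under the control of E2F transcription factors. Microglia colonize the brain before birth and proliferate in the first postnatal weeks, whereas adult microglia divide rarely.

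The letters through which E2F factors are known to bind were searched in the promoters, because they are the sequence feature that replication genes are best known to share. The window ran from 250 bases before to 50 bases after the canonical transcription start (GRCm39, GENCODE annotation), and the letters were TTTGGCGC, TTTCCCGC, TTTGCCGC and TTTCGCGC on either strand. They were present in the window of 14 of the 49 members (28.6%), against 614 of 21757 protein-coding genes (2.82%). These 14 members were Cdc6, Cdt1, Dscc1, Gins1, Mcm3, Mcm4, Mcm5, Mcm6, Orc1, Pola1, Pole, Pole2, Rfc3 and Tipin. Stretches of 6 of them are given 5′ to 3′ on the strand of the gene, with the matching letters in capitals. Mcm4, Mcm5 and Mcm6 encode subunits of the helicase ring, Pola1 encodes the catalytic subunit of polymerase alpha, and Cdc6 and Cdt1 encode the loaders of the ring. The capitals of Mcm5 and of Mcm6 hold a pair of overlapping matches on opposite strands.
Mcm4: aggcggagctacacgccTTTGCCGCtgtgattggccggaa
Mcm5: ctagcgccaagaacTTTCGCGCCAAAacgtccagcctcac
Mcm6: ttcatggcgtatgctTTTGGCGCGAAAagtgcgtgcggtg
Pola1: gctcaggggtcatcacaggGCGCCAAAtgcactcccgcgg
Cdt1: gaactaccttTTTGGCGCcatg
Cdc6: gtagagcggcTTTGGCGCga
The Mcm4 stretch lies at chr16:15455320-15455359 on the minus strand, 95 to 56 bases before the start. The Mcm5 stretch lies at chr8:75835970-75836009 on the plus strand, 170 to 131 bases before the start. The Mcm6 stretch lies at chr1:128287528-128287567 on the minus strand, 115 to 76 bases before the start. The Pola1 stretch lies at chrX:92675879-92675918 on the minus strand and ends 66 bases before the start. The letters of Cdt1 (chr8:123294776-123294797, plus strand) and of Cdc6 (chr11:98798657-98798676, plus strand) lie behind the start, in the 5′ untranslated part of the first exon.

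Libraries held between 5152838 and 42231258 counted reads. In 3 libraries few genes had a count above 0, namely 15731 in P9-ELS replicate 5, 12482 in P9-ELS replicate 6 and 12854 in CTR-PBS replicate 1. The calls that turned on them and some of the values are given with and without them. Other ranges and percents include all libraries. Thus the lowest CTR-PBS values of Rrm2, Tk1 and Lig1 below came from replicate 1, and without it they were 0.662, 1.05 and 4.61 CPM. No 2 mice of a group agreed within sampling noise. The microglial genes Tmem119, P2ry12 and Cx3cr1 were counted in every mouse. Levels are given as CPM normalized with edgeR's TMM factors. A gene passed when its adjusted p (edgeR's quasi-likelihood test, Benjamini-Hochberg over all genes tested) was under 0.05, and it was called when its log2 fold change was in addition above 1 or below -1.

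The replication genes were far higher in microglia at P9 than at P200 in both rearing conditions. The summed level of the 49 members was 3391 ± 345 CPM in P9-CTR (SD, n = 12, from 2935 to 4012) and 920.0 ± 50.0 in CTR-PBS (SD, n = 7, from 869 to 994). In ELS mice it was 3484 ± 323 at P9 (SD, n = 13, from 3199 to 4343) and 903 ± 35.9 in ELS-PBS (SD, n = 6, from 856 to 946). Without the 3 libraries with few genes it was 3407 ± 211 in P9-ELS (n = 11) and 926 ± 52.3 in CTR-PBS (n = 6). The lowest P9 mouse was thus above the highest adult mouse. The nest means ranged from 2941 to 3903 CPM at P9. In bulk samples, fewer cycling cells and less RNA per cell cannot be told apart.

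**Figure D1:**
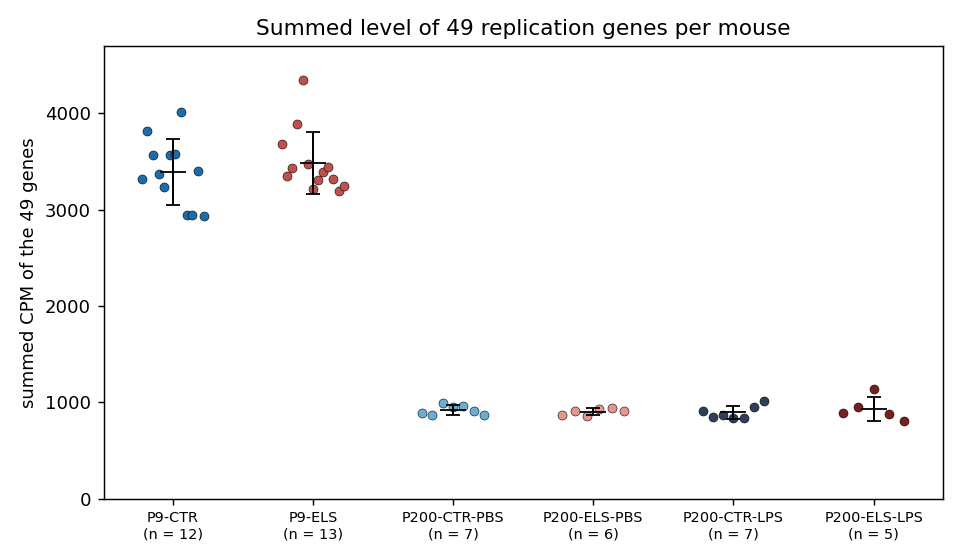
The summed CPM of the 49 replication genes (y axis, linear, from 0) is plotted for every mouse (points) in the 6 groups (x axis), with the group mean and SD as lines. All 25 P9 mice lie at 2935 CPM or above and all adult mice at 1142 CPM or below.

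In CTR mice 40 of the 49 members were called lower at P200 than at P9 and 0 were called higher, where 18.5% of all genes tested were called lower and 7.98% higher. Without the fold threshold 45 members passed lower, against 26.6% of all genes. In ELS mice 41 members were called lower and 0 higher, where 17.5% of all genes were called lower and 8.68% higher, and 44 passed lower, against 25.0% of all genes. The median log2 fold change of the members was -2.28 in CTR and -2.34 in ELS, and that of all genes tested was -0.09 and -0.01. The P9 and adult mice did not overlap for 37 members in CTR and 34 in ELS, with the adults lower, where 10.5% and 7.03% of all genes did so. Without the 3 libraries with few genes these numbers were 40 and 41. The calls were shared by both conditions for 39 members. Pola2 was called in CTR only and Rfc3 and Rpa3 in ELS only, but these memberships turned on the 3 libraries with few genes. Without these libraries Pola2 was not called in CTR (log2 fold change -0.80, SE 0.17) and was called in ELS (-1.01, SE 0.17). Rfc3 was then called in CTR (-1.08, SE 0.18) and not in ELS (-0.75, SE 0.18), Rpa3 was not called in ELS (-0.82, SE 0.19), and Gins3 was called in CTR (-1.10, SE 0.26). All of these changes lay close to the fold threshold and passed without it. No member passed the test of the difference between the conditions (described with the ELS comparisons). With all libraries Gins3, Gins4, Pold2, Pold3, Rfc2, Chaf1a and Slbp were called in neither condition. The age comparisons use the same CTR-PBS and ELS-PBS mice as the LPS comparisons.

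The members differed widely in how much of their P9 level was left in adult microglia, taken as the mean CPM of CTR-PBS in percent of that of P9-CTR. Less than 1% was left of Mcm10, Pole, Rrm2, Ccne1 and Clspn, and from 1 to 5% of Cdc6, Tk1, Chaf1b and Brca1. From 5 to 10% was left of 8 members, from 10 to 25% of 9, from 25 to 50% of 14 and from 50 to 75% of 6. More than 75% was left of Gins4 (112%), Rfc2 (92.4%) and Slbp (84.8%). Members that share a complex or a pathway thus ended at very different adult levels. On a scale of CPM per kilobase of the canonical transcript, the highest P9-CTR levels among the members were those of Rrm2 (98.0), Mcm6 (79.7) and Pcna (79.2). In CTR-PBS the highest levels on that scale were those of Slbp (59.2), Rfc2 (31.2) and Pcna (26.0).

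**Figure D2:**
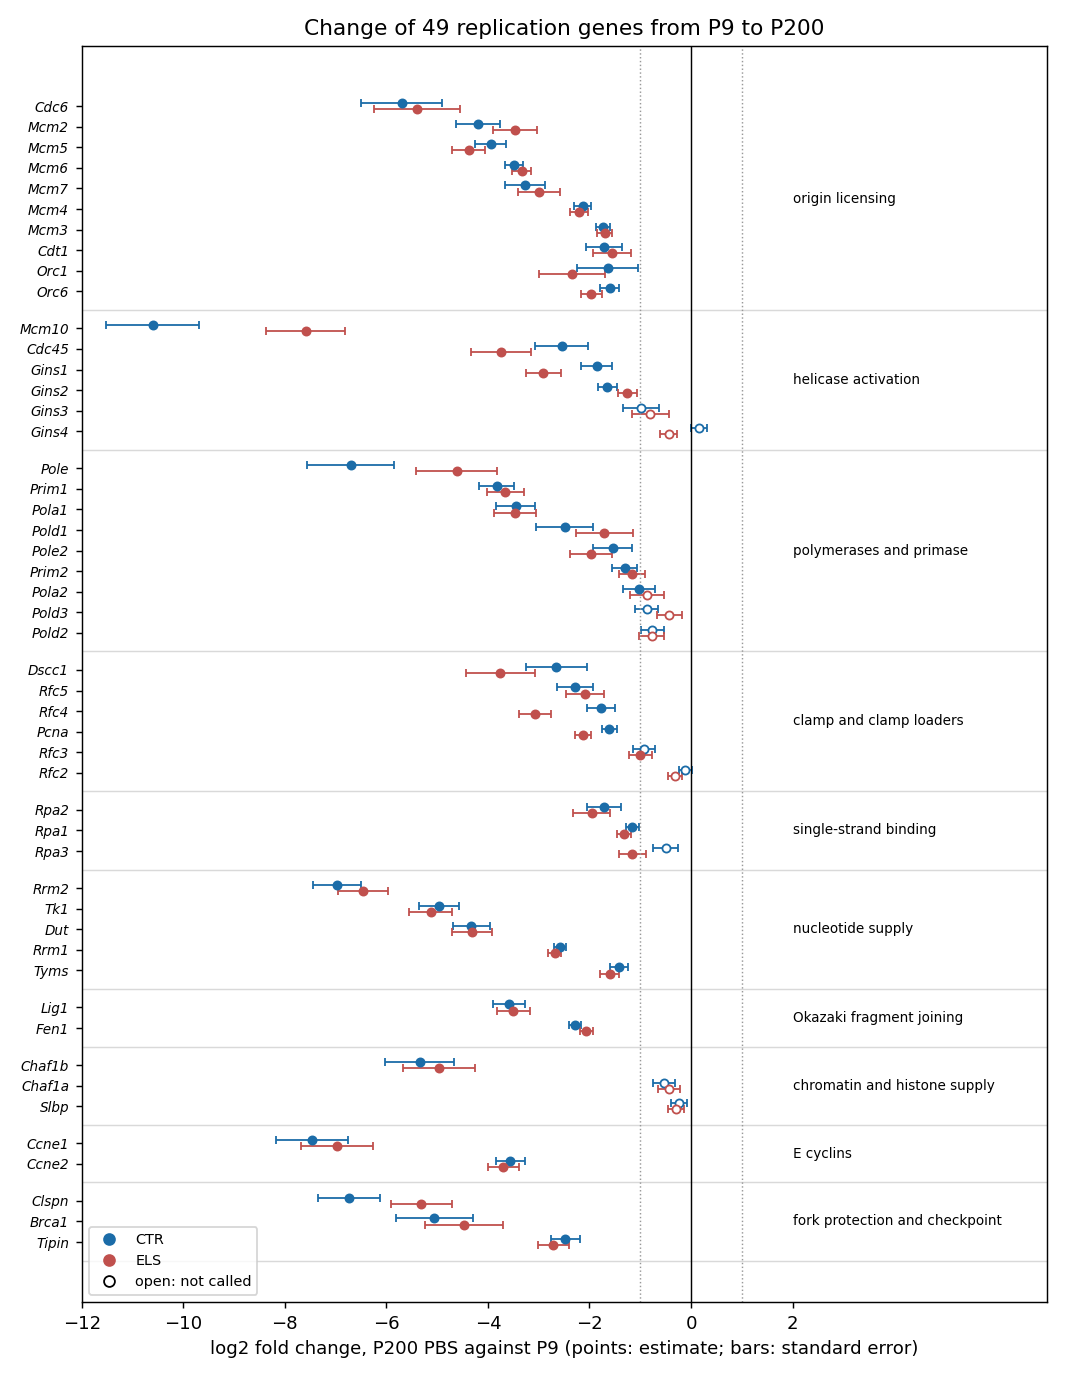
The log2 fold change from P9 to P200-PBS of each of the 49 genes (points, with the SE as bars) is plotted for CTR and ELS mice, ordered by role. Only Gins4 in CTR (0.16) lies above 0, and Mcm10 in CTR (-10.60) is the lowest value.

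All 10 origin licensing genes were called lower with age in both conditions, with a median log2 fold change of -2.70 in CTR. Cdc6 (chr11:98798507-98814766), which recruits the helicase to ORC, fell the most. Its level was 13.7 to 29.3 CPM (median 21.7) in P9-CTR and 0 to 1.17 CPM (median 0.0713) in CTR-PBS, with 2 of 7 adult mice at 0. The groups did not overlap, and the log2 fold change was -5.70 with an SE of 0.80 (adjusted p = 7.57e-08). Orc6 (chr8:86026219-86034912), a subunit of the origin recognition complex, fell the least, from 24.1 to 42.1 CPM (median 30.4) to 6.87 to 18.0 CPM (median 9.93). Its groups did not overlap either, with a log2 fold change of -1.60 and an SE of 0.19 (adjusted p = 9.68e-10). Orc1, another ORC subunit, was low at both ages, with 3.19 to 7.91 CPM in P9-CTR and 1.12 to 2.64 CPM in CTR-PBS. Cdt1, the other loader, kept 30.5% of its level and ran from 27.8 to 63.3 CPM at P9 and from 8.45 to 16.6 CPM in the adult.

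The 6 subunits of the MCM2-7 ring fell unequally. Mcm6 ran from 158 to 288 CPM (median 239) in P9-CTR and from 11.6 to 29.0 CPM (median 22.3) in CTR-PBS, which left 8.92% of its mean level. Mcm3 ran from 159 to 307 CPM (median 263) in P9-CTR and from 64.7 to 95.6 CPM (median 76.8) in CTR-PBS, which left 30.2%. Mcm2 kept 5.47%, Mcm5 6.46%, Mcm7 10.3% and Mcm4 22.8%. In none of the 6 genes did the P9-CTR and CTR-PBS mice overlap. In ELS mice Mcm3 kept 30.7% and Mcm6 9.92%, and Mcm5 ran from 22.5 to 162 CPM at P9, with the lowest value in P9-ELS replicate 5. Without P9-ELS replicates 5 and 6 the mean of Mcm5 in P9-ELS was 143 ± 11.11 CPM (SD, n = 11).

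**Figure D3:**
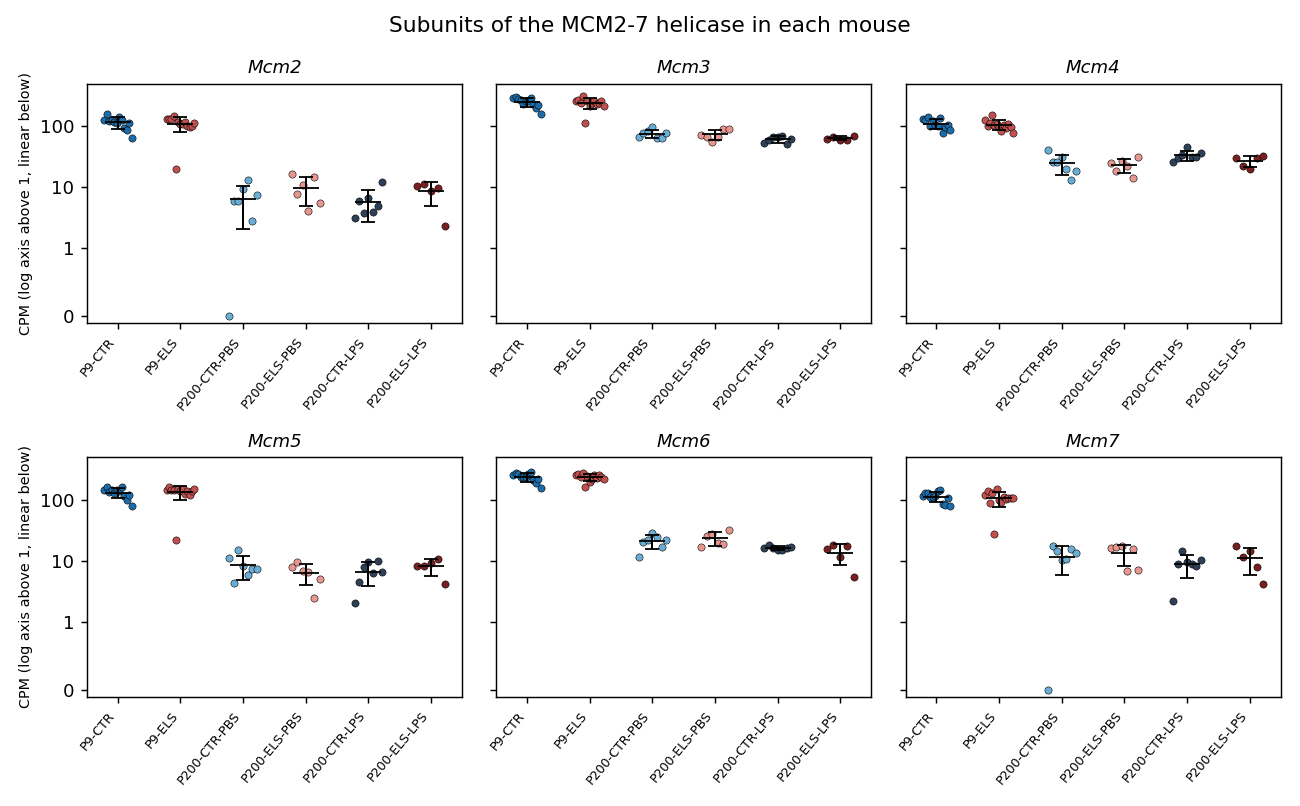
The CPM of the 6 MCM2-7 genes (y axis, on a log scale above 1 CPM and linear below) is plotted for every mouse (points) in the 6 groups (x axis), with the group mean and SD as lines. Adult Mcm3 is at 56.0 CPM or above in all PBS mice, while adult Mcm2 and Mcm5 stay at 16.6 CPM or below in these mice.

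Among the 6 genes of helicase activation 4 were called lower in each condition. Mcm10 (chr2:4994516-5017629), which helps to open the loaded helicase, was nearly absent in the adult. It ran from 10.9 to 30.9 CPM (median 18.4) in P9-CTR, whereas 6 of 7 CTR-PBS mice had no count and the seventh had 1 count. The ratio of the summed counts per total count was 3141 (95% exact counting interval 564 to 124100), from 5336 counts against 1. This interval, too, covers counting error only. The fitted log2 fold change was -10.60 (SE 0.92, adjusted p = 9.03e-14) and depends on the prior count. Cdc45, which joins MCM2-7 in the active helicase, kept 17.0% of its level in CTR and 7.27% in ELS.

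The 4 GINS subunits, which complete the active helicase, kept unequal parts of their P9 level. Gins1 kept 27.6% of its level and Gins2 31.9% in CTR. Gse1 on the opposite strand shares 67.3% of the exon bases of Gins2, and without a known strand setting their reads cannot be told apart there. Gins3 kept 50.2% (adjusted p = 0.0192) and was not called. Gins4 (chr8:23715215-23727777) ran from 24.5 to 37.5 CPM (median 30.5) in P9-CTR and from 24.9 to 60.5 CPM (median 29.3) in CTR-PBS. The groups overlapped, and the log2 fold change of Gins4 was 0.16 with an SE of 0.16 (adjusted p = 0.426), ranging from -0.03 to 0.23 over the alternative analyses. The highest CTR-PBS value of Gins4 came from replicate 1, and without that mouse the mean was 30.6 ± 4.85 CPM (SD, n = 6). In ELS mice Gins4 kept 73.9% (adjusted p = 0.0316) and was not called.

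Of the 9 genes of polymerases and primase 7 were called lower in CTR and 6 in ELS. Pole (chr5:110434172-110486287), the catalytic subunit of the leading-strand polymerase epsilon, ran from 13.9 to 30.2 CPM (median 25.5) in P9-CTR and from 0 to 0.717 CPM (median 0) in CTR-PBS, with 4 of 7 mice at 0. Its log2 fold change was -6.71 with an SE of 0.86 (adjusted p = 8.82e-09). Its partner subunit Pole2 was low at both ages and kept 34.1%. The CTR-PBS level of Pole2 was 10.4 CPM in replicate 1 and 0.642 to 3.57 CPM in the other mice, and without replicate 1 it kept 19.9%. Pold2 (chr11:5822180-5828292), an accessory subunit of polymerase delta, ran from 34.6 to 60.05 CPM (median 49.6) in P9-CTR and from 24.0 to 35.5 CPM (median 28.7) in CTR-PBS. The groups of Pold2 overlapped narrowly, and its log2 fold change of -0.76 (SE 0.23, adjusted p = 0.00663) passed without being called. The catalytic subunit Pold1 kept 17.7% and Pold3, another accessory subunit, 54.5%. In polymerase alpha, the catalytic Pola1 kept 9.16% and the accessory Pola2 49.2%. The catalytic primase subunit Prim1 kept 7.17% and its large partner Prim2 40.3%.

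Of the 6 genes of the clamp and its loaders 4 were called lower in CTR and 5 in ELS. Pcna (chr2:132091082-132095234), the sliding clamp, ran from 102 to 152 CPM (median 116) in P9-CTR and from 30.6 to 50.5 CPM (median 38.2) in CTR-PBS, without overlap. Dscc1, part of an alternative clamp loader that acts in sister chromatid cohesion, ran from 6.16 to 15.19 CPM (median 9.67) in P9-CTR and from 0.102 to 7.28 CPM (median 0.715) in CTR-PBS. The log2 fold change of Dscc1 was -2.65 with an SE of 0.60 (adjusted p = 0.000293). The highest adult mouse, which overlapped with the P9 mice, was CTR-PBS replicate 1, and the others were at 1.43 CPM or below. Without the libraries with few genes the groups of Dscc1 did not overlap, and its log2 fold change was -3.90 with an SE of 0.58 (adjusted p = 1.91e-07). Rfc2 (chr5:134610220-134630661), a subunit of the main clamp loader, ran from 146 to 198 CPM (median 166) in P9-CTR and from 136 to 193 CPM (median 148) in CTR-PBS. These groups overlapped in most of their range, with a log2 fold change of -0.11 and an SE of 0.13 (adjusted p = 0.507). The other loader subunits kept 52.3% (Rfc3), 29.2% (Rfc4) and 20.5% (Rfc5). Lat2 on the opposite strand shares 24.3% of the exon bases of Rfc2 and Wsb2 shares 41.4% of those of Rfc5, and since the strand setting of the counting is not given in the sources used here, reads of such overlaps cannot be told apart.

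Of the 3 genes of replication protein A, which coats single-stranded DNA, 2 were called lower in CTR and 3 in ELS. Rpa2 ran from 45.4 to 65.9 CPM (median 52.6) in P9-CTR and from 0 to 22.2 CPM (median 18.0) in CTR-PBS, with a log2 fold change of -1.72 and an SE of 0.34 (adjusted p = 3.87e-05). Its value of 0 came from CTR-PBS replicate 1. Rpa1, the large subunit, kept 44.8%. Rpa3, the small subunit, ran from 9.68 to 19.8 CPM (median 15.3) in P9-CTR and from 7.58 to 13.4 CPM (median 10.3) in CTR-PBS. These groups overlapped, and the log2 fold change of Rpa3 of -0.50 (SE 0.25) had an adjusted p of 0.0994 in CTR. It passed in CTR when the groups compared were fitted alone or the 3 libraries with few genes were left out.

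All 5 genes of nucleotide supply were called lower in both conditions, with a median log2 fold change of -4.32 in CTR. Rrm2 (chr12:24757811-24764145), the small subunit of ribonucleotide reductase, which makes deoxynucleotides, ran from 198 to 334 CPM (median 248) in P9-CTR and from 0 to 3.89 CPM (median 2.00) in CTR-PBS. Every adult mouse was thus far below every P9 mouse, with a log2 fold change of -6.98 and an SE of 0.47 (adjusted p = 1.55e-17). Its partner Rrm1, the large subunit, kept 16.7% and ran from 30.9 to 47.9 CPM in CTR-PBS. Tk1, the thymidine kinase of cycling cells, ran from 64.4 to 114 CPM in P9-CTR and from 0 to 3.97 CPM in CTR-PBS, which left 3.17%. Dut, which clears dUTP, kept 5.04%. Tyms, thymidylate synthase, fell the least, from 68.4 to 101 CPM (median 79.1) to 25.3 to 42.3 CPM (median 27.4), without overlap, with a log2 fold change of -1.42 and an SE of 0.18 (adjusted p = 5.36e-09).

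Both genes of Okazaki fragment joining were called lower. Lig1, the ligase of replication, ran from 54.6 to 87.5 CPM (median 68.7) in P9-CTR and from 0.102 to 11.13 CPM (median 6.17) in CTR-PBS, with a log2 fold change of -3.59 and an SE of 0.31 (adjusted p = 7.19e-14). Fen1, the flap endonuclease, ran from 125 to 222 CPM (median 177) and from 28.5 to 48.2 CPM (median 34.0), with a log2 fold change of -2.28 and an SE of 0.12 (adjusted p = 2.73e-21). Neither gene overlapped between the ages. The lncRNA Gm10143 shares 59.0% of the exon bases of Fen1 on the opposite strand.

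In chromatin and histone supply 1 of 3 members was called. Chaf1b, a subunit of the chromatin assembly factor that loads histones behind the fork, ran from 13.0 to 32.4 CPM (median 23.1) in P9-CTR and from 0 to 1.33 CPM (median 0.428) in CTR-PBS, with a log2 fold change of -5.35 and an SE of 0.68 (adjusted p = 6.38e-09). Its partner Chaf1a kept 69.0% (adjusted p = 0.0354) and was not called, and Ubxn6 shares 51.0% of its exon bases on the opposite strand. Slbp (chr5:33792296-33809969), which binds the stem loop of histone mRNA, ran from 99.0 to 162 CPM (median 135) and from 80.9 to 135 CPM (median 115). The groups of Slbp overlapped, with a log2 fold change of -0.24 and an SE of 0.15 (adjusted p = 0.2).

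The E cyclins and the genes of fork protection and checkpoint were called lower throughout. Ccne1, which activates Cdk2 at the entry into S phase, ran from 4.34 to 16.7 CPM (median 9.65) in P9-CTR and from 0 to 0.275 CPM (median 0) in CTR-PBS, with a log2 fold change of -7.47 and an SE of 0.70 (adjusted p = 1.24e-12). Ccne2, the related cyclin, ran from 47.2 to 81.6 CPM (median 55.7) and from 2.29 to 7.51 CPM (median 5.04), with a log2 fold change of -3.56 and an SE of 0.28 (adjusted p = 5.23e-15). Clspn, the checkpoint adaptor claspin, ran from 8.27 to 28.1 CPM (median 20.05) and from 0 to 0.437 CPM (median 0.102), with a log2 fold change of -6.74 and an SE of 0.62 (adjusted p = 5.69e-13). Tipin, which holds the fork together, kept 18.0% (log2 fold change -2.48, SE 0.29, adjusted p = 4.77e-10). Brca1, which protects stalled forks and repairs breaks, kept 3.11%.

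The unequal fall within complexes was tested on each subunit's share of the summed level of its complex, on the scale of CPM per kilobase. The tests were 2-sided exact permutation tests over mice (40 tests, Benjamini-Hochberg adjusted). They took mice as independent and were not repeated by nest. Shares within a complex are tied to one another. An adjusted p of 6.41e-05 is the smallest that these tests gave. The share of Mcm3 in MCM2-7 was 18.6% ± 0.96 in P9-CTR (SD, n = 12, from 17.14 to 20.05) and 41.6% ± 3.07 in CTR-PBS (SD, n = 7, from 36.2 to 46.6). In ELS it was 18.21% ± 0.70 (SD, n = 13) and 39.1% ± 6.47 (SD, n = 6), and the adjusted p of the exact test was 6.41e-05 in both conditions, in which the mice did not overlap. The share of Mcm4 rose from 8.71 to 14.9% in CTR (adjusted exact p = 0.000214) and from 8.86 to 12.9% in ELS (adjusted exact p = 0.0141). The shares of Mcm2, Mcm5 and Mcm6 fell in both conditions, for Mcm6 from 32.0 to 20.8% in CTR. The share of Mcm7 fell in CTR from 15.4 to 11.7% (adjusted exact p = 0.0328) and was 14.6 and 13.0% in ELS (adjusted exact p = 0.363). The Mcm7 share was 0 in CTR-PBS replicate 1, where no read of Mcm7 was counted. Without the 3 libraries with few genes the adult share of Mcm7 in CTR was 13.603% and the difference did not pass (adjusted exact p = 0.136).

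Shares also shifted in the other complexes. Rfc2 held 37.4% ± 2.41 of the RFC2-5 level in P9-CTR and 60.8% ± 2.29 in CTR-PBS, and Gins4 held 40.5% ± 4.70 of the GINS level and then 69.0% ± 5.15 (SD, adjusted exact p = 6.41e-05 for both). Rrm2 held 66.5% ± 2.33 of ribonucleotide reductase in P9-CTR and 8.43% ± 6.14 in CTR-PBS, so that Rrm1 rose to 91.6% (adjusted exact p = 6.41e-05). In polymerase alpha-primase the accessory Pola2 rose from 25.1 to 40.2% and Prim2 from 26.8 to 43.1% in CTR, while the catalytic Pola1 fell from 16.0 to 4.72% and Prim1 from 32.1 to 12.0%. The shares of Rfc3 and Gins3 in both conditions and of Gins2 in ELS did not pass this test. Without the 3 libraries the share of Gins2 in ELS, from 17.975 to 14.8%, passed (adjusted exact p = 0.0141), and the calls of all shares other than those of Mcm7 and Gins2 were as before. The shares are of mRNA and depend on the transcript chosen for the length.

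**Figure D4:**
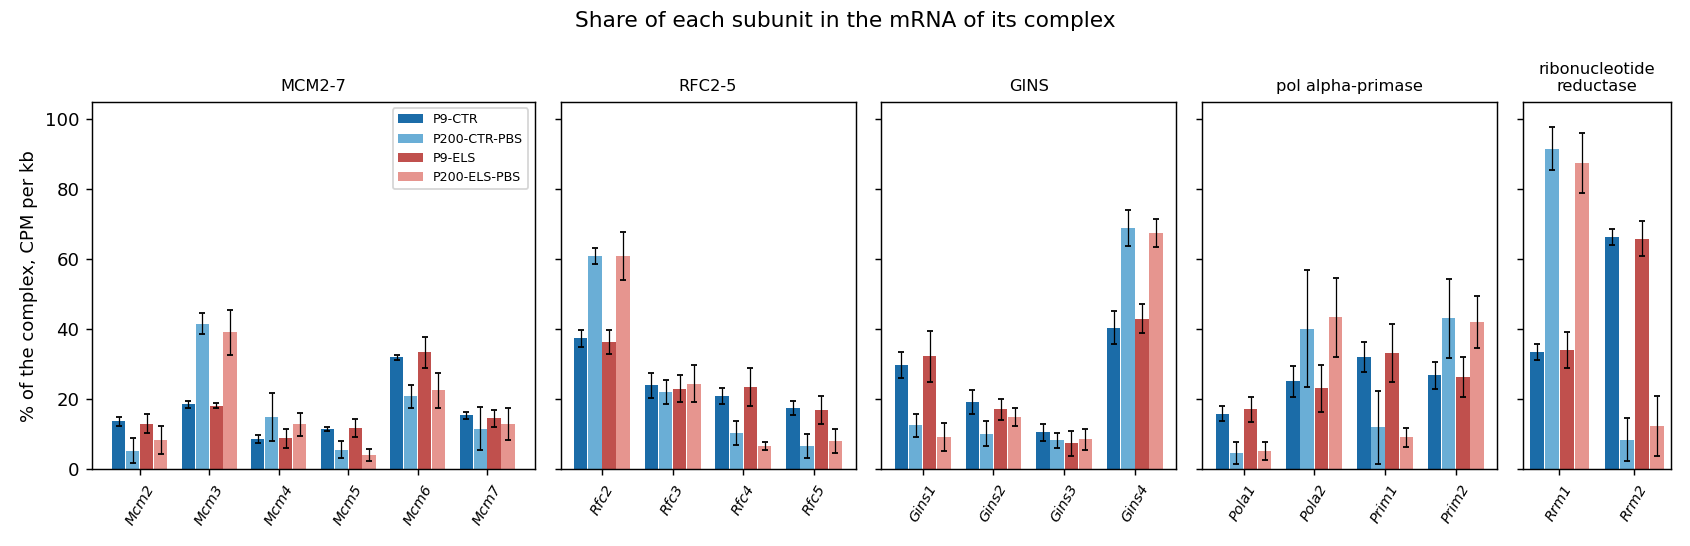
The share of each subunit in the summed CPM per kilobase of its complex (y axis, percent, linear from 0) is shown as the mean (bars) with the SD (error bars) in P9-CTR, CTR-PBS, P9-ELS and ELS-PBS mice. Mcm3, Rfc2, Gins4 and Rrm1 take a larger share in the adult in both conditions, and Rrm2 falls from 66.5 to 8.43% in CTR.

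The 14 members with E2F letters in the promoter window had a median log2 fold change with age of -2.31 in CTR, and 13 of them were called lower. The 35 members without these letters had a median of -2.28, and 27 were called lower. The changes ran from -6.71 to -0.93 with the letters and from -10.60 to 0.16 without them, and so overlapped. The letters CCAAT were present in 53.06% of the member windows and 39.9% of all windows. The letters TTTGAA or TTCGAA, known from genes of mitosis, were present in 10.2% of the member windows and 18.7% of all windows.

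Genes that work beside the members were lower with age in part. Of 44 other replication genes 26 were called lower and 0 higher in CTR, and 27 lower and 1 higher in ELS. The medians were -1.74 and -1.43. Of all genes tested 18.5% were called lower and 7.98% higher in CTR, and 17.5% and 8.68% in ELS. The largest falls in CTR were those of Ticrr (log2 fold change -6.70, SE 0.86, adjusted p = 7.03e-09), which starts the assembly of the active helicase, Uhrf1 (-6.0004, SE 0.65, adjusted p = 9.09e-11), which keeps DNA methylation through replication, and Hells (-5.20, SE 0.48, adjusted p = 6.16e-13), a chromatin remodeller. The gene called higher in ELS was Rrm2b, the reductase subunit of resting cells, with 20.3 CPM in P9-ELS and 42.8 CPM in ELS-PBS (log2 fold change 1.08, adjusted p = 6.38e-06). In CTR it was at 17.9 and 35.6 CPM and passed with a log2 fold change of 0.99 (adjusted p = 1.65e-05). Rrm2b thus moved against its cell-cycle counterpart Rrm2.

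Of 13 genes of E2F factors and their pocket protein partners 6 were called lower and 0 higher in CTR. In ELS 4 were called lower and 1 higher. Of all genes tested 18.5% were called lower and 7.98% higher in CTR, and 17.5% and 8.68% in ELS. The 1 of 13 called higher in ELS was thus near the share of all genes. E2f8 (log2 fold change -8.43, SE 0.87, adjusted p = 1.79e-11) and E2f7 (-6.10, SE 0.81, adjusted p = 1.79e-08), both repressors that act late in S phase, and the activator E2f1 (-4.93, SE 0.71, adjusted p = 1.22e-07) fell the most in CTR. The activator E2f3 was called higher in ELS, from 12.7 to 26.1 CPM (log2 fold change 1.04, adjusted p = 0.000179), and passed in CTR with a log2 fold change of 0.79 (adjusted p = 0.00323). All 20 genes of a list of mitosis genes were called lower in both conditions, where 18.5% and 17.5% of all genes tested were. The medians of the mitosis genes were -5.78 and -5.93. The summed level of the mitosis genes was 2101 ± 363 CPM in P9-CTR (SD, n = 12) and 46.0 ± 8.86 CPM in CTR-PBS (SD, n = 7).

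Markers of other cells also moved with age, in both directions, and their part in the falls above was not tested. The summed level of 7 marker genes of neural progenitors and immature neurons ranged from 36.7 to 75.7 CPM in P9-CTR and from 0 to 2.00 CPM in CTR-PBS. In P9-CTR the means of these genes were 23.4 CPM for Nes, 12.9 for Sox11, 7.76 for Dcx, 3.56 for Neurod1, 1.02 for Pax6, 0.456 for Sox2 and 0.0722 for Eomes. Nes, a progenitor gene, and Sox11 thus made up most of the sum. Neuronal markers ranged from 69.5 to 186 CPM and from 2.49 to 11.9 CPM, and markers of oligodendrocyte precursors from 1.64 to 17.5 CPM and from 0 to 0.581 CPM. Markers of border-associated macrophages ranged from 547 to 916 CPM in P9-CTR, mostly from Mrc1, and from 2.84 to 9.62 CPM in CTR-PBS. The microglial marker P2ry12 ranged from 7636 to 9114 CPM in P9-CTR and from 12500 to 16170 CPM in CTR-PBS. Not all microglial markers examined rose with it, and the means of several were lower in CTR-PBS.

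LPS changed few members. In CTR mice 2 of 49 members were called lower and 2 higher in CTR-LPS than in CTR-PBS, where 3.6% of all genes tested were called lower and 6.02% higher. Without the fold threshold 5 members passed, against 14.9% of all genes. In ELS mice 1 member was called lower and 1 higher, where 3.17% and 4.69% of all genes were, and 3 passed, against 12.3%. These shares were near or below those of all genes. The median log2 fold change of the members was -0.21 in CTR and -0.18 in ELS, that of all genes 0.00 and -0.04. The summed level was 899 ± 67.7 CPM in CTR-LPS (SD, n = 7, from 843 to 1019) and 934 ± 127 CPM in ELS-LPS (SD, n = 5, from 806 to 1142), which overlapped with the PBS mice.

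Cdt1 was lower after LPS in both conditions. It ran from 8.45 to 16.6 CPM (median 11.05) in CTR-PBS and from 0.729 to 7.87 CPM (median 2.36) in CTR-LPS, so that every LPS mouse was below every PBS mouse. Cdt1 was the only member whose groups did not overlap in CTR, where 2.56% of all genes were lower without overlap. Its log2 fold change was -1.53 with an SE of 0.39 (adjusted p = 0.00387). In ELS-PBS it ran from 9.68 to 13.5 CPM (median 10.3), and the ELS-LPS mice were at 1.25, 2.98, 12.5, 2.53 and 2.46 CPM. Of these 5 mice 4 were below all ELS-PBS mice and 1, replicate 3, was within their range. The log2 fold change in ELS was -1.35 with an SE of 0.45 (adjusted p = 0.0375), and 0 members were without overlap, where 4.35% of all genes were lower without overlap. The ELS call was lost when 1 of 6 mice was left out, with log2 fold changes of -1.11 without ELS-LPS replicate 1, -1.24 without replicate 2, -1.20 without replicate 4, -1.20 without replicate 5, -1.303 without ELS-PBS replicate 3 and -1.28 without ELS-PBS replicate 5.

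Tk1 was called higher after LPS in both conditions, from a low adult level. It ran from 0 to 3.97 CPM (median 3.07) in CTR-PBS and from 2.26 to 11.3 CPM (median 6.06) in CTR-LPS. The groups overlapped in part, with a log2 fold change of 1.46 and an SE of 0.36 (adjusted p = 0.00303). In ELS-PBS it ran from 1.09 to 5.95 CPM (median 1.79), and the ELS-LPS mice were at 7.60, 3.33, 6.86, 8.29 and 9.68 CPM. Only ELS-LPS replicate 2 was within the range of the ELS-PBS mice, and the log2 fold change was 1.58 with an SE of 0.41 (adjusted p = 0.00522). All 5 adult nests of each condition had mice in both treatments, and with the nest as a block Tk1 was not called in CTR (log2 fold change 1.39, SE 0.73, adjusted p = 0.252) or in ELS (1.76, SE 0.70, adjusted p = 0.118). The highest of these levels was still below the lowest P9-CTR level of 64.4 CPM. Syngr2 shares 9.4% of the exon bases of Tk1 on the opposite strand.

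Orc1 was called lower in CTR. It ran from 1.12 to 2.64 CPM (median 1.60) in CTR-PBS and from 0 to 1.79 CPM (median 0.131) in CTR-LPS, with 3 of 7 LPS mice at 0. Of the LPS mice replicate 3 alone lay within the PBS range, and the log2 fold change was -2.28 with an SE of 0.69 (adjusted p = 0.018). In ELS-PBS Orc1 ran from 0.0543 to 2.16 CPM (median 1.41), and the ELS-LPS mice were at 0.148, 0, 1.55, 0.11 and 1.3005 CPM, with a log2 fold change of -1.06 and an SE of 0.76 (adjusted p = 0.419). Cdt1 and Orc1 were the only members called lower in CTR, and the other origin licensing genes were not called. In ELS Cdc6, which the study named among genes lowered by LPS, was called only with the likelihood-ratio test. Cdc6 had 60 counts in 2 of 6 ELS-PBS mice and 3 counts in 1 of 5 ELS-LPS mice.

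Mcm10 was also called higher in CTR-LPS, on very few counts. It had 1 count in 1 of 7 CTR-PBS mice and 30 and 15 counts in 2 of 7 CTR-LPS mice, with 5 at 0. The ratio of the summed counts per total count was 43.3 (95% exact counting interval 7.38 to 1746), and the interval covers counting error only. The fitted log2 fold change of 4.49 (SE 1.09, adjusted p = 0.00234) depends on the prior count. In the ELS mice 11 counts were in 1 ELS-PBS mouse and 1 count in 1 ELS-LPS mouse. Most adult mice of every group had no count of Mcm10. Fitting only the groups compared ended the calls of Tk1, Orc1 and Mcm10 in CTR and of Cdt1 in ELS, and summing the counts per nest ended those of Tk1 and Orc1 in CTR. With the nest as a block the adjusted p in CTR was 0.0764 for Orc1 and 0.386 for Mcm10, while Cdt1 was called in CTR (0.0129) and in ELS (0.0287). Over all alternatives the adjusted p in CTR reached at most 0.0338 for Cdt1, 0.252 for Tk1, 0.13 for Orc1 and 0.386 for Mcm10.

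Slbp and Mcm6 passed without reaching the fold threshold. Slbp ran from 80.9 to 135 CPM (median 115) in CTR-PBS and from 126 to 212 CPM (median 161) in CTR-LPS, with a log2 fold change of 0.56 and an SE of 0.17 (adjusted p = 0.0171). In ELS it was 0.38 with an SE of 0.19 (adjusted p = 0.208). Mcm6 ran from 16.9 to 32.3 CPM (median 22.5) in ELS-PBS, and the ELS-LPS mice were at 15.71, 18.14, 11.50, 17.295 and 5.56 CPM. The log2 fold change of Mcm6 was -0.78 with an SE of 0.20 in ELS (adjusted p = 0.00439) and -0.37 with an SE of 0.17 in CTR (adjusted p = 0.152). The differences between the conditions in the LPS change of Orc1, Slbp and Mcm6 did not pass the test of the interaction.

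**Figure D5:**
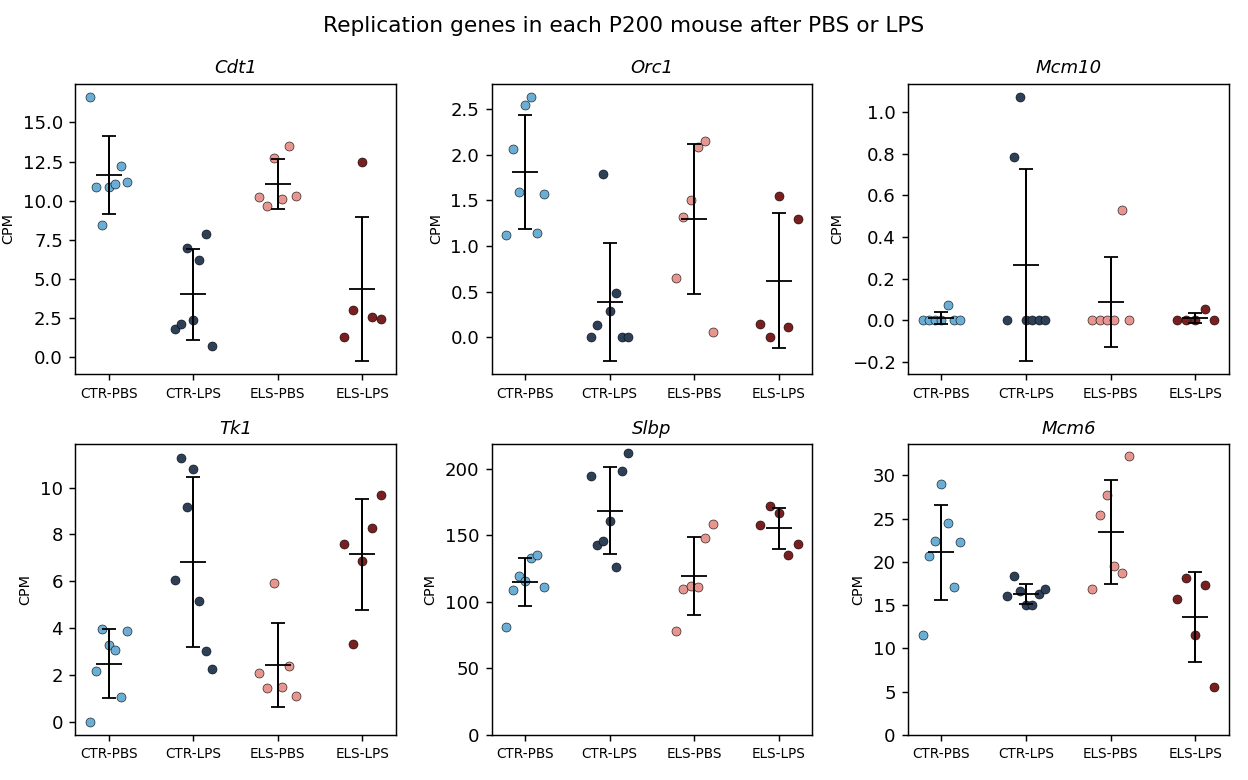
The CPM (y axes, linear) of members that changed after LPS is plotted for every P200 mouse (points) in the 4 adult groups (x axes), with the group mean and SD as lines. Cdt1 is lower in all CTR-LPS than in all CTR-PBS mice, and Mcm10 is at 0 in most mice.

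Some of the 44 other replication genes were called after LPS. In CTR 2 of them were called lower and 2 higher, where 3.6% and 6.02% of all genes tested were. Asf1b, a histone chaperone of S phase, was 8.55 ± 2.30 CPM in CTR-PBS and 4.03 ± 1.93 CPM in CTR-LPS (SD, n = 7 each, log2 fold change -1.08, adjusted p = 0.00115). Atad5, which unloads Pcna, had a log2 fold change of -1.15 (adjusted p = 0.0213). Uhrf1 (1.74, adjusted p = 0.0399) and Wdhd1, a link between helicase and polymerase alpha (1.51, adjusted p = 0.0459), were called higher from means of 1.03 and 2.07 CPM. In ELS 8 of the 44 were called lower, where 3.17% of all genes tested were, and 0 were called higher. The study had named Polg2, Chek1, Dna2 and Dbf4 and the member Cdc6 among genes lowered by LPS in ELS microglia, from these same mice. The list was chosen with such earlier results known, so its share cannot be read against that of all genes. By adjusted p these were led by Mcm9 (log2 fold change -1.31, adjusted p = 0.00521), a helicase of repair, Polg2 (-1.51, adjusted p = 0.00601), a subunit of the mitochondrial polymerase, and Hells (-2.03, adjusted p = 0.0146). They were followed by the checkpoint kinase gene Chek1 (-2.03, adjusted p = 0.0309), the nuclease gene Dna2 (-2.09, adjusted p = 0.0314) and Mms22l (-1.85, adjusted p = 0.0315), which acts in fork repair, and the 2 others were Asf1a and Dbf4. The means of Hells, Chek1 and Dna2 in ELS-PBS were between 1.49 and 2.19 CPM. The counts of Asf1a ran from 116 to 1082 in ELS-PBS, from 32 to 216 in ELS-LPS and from 72 to 276 in CTR-PBS. In the test of whether the LPS change differed between the conditions, 0 of the 44 were called, where 0.0% of all genes tested were. How far these calls turned on single mice was not examined. Among the 13 E2F and pocket protein genes E2f8 was called higher in CTR (2.68, adjusted p = 0.0394) from a mean of 0.0608 CPM, and 0 were called in ELS. Of the 20 mitosis genes 0 were called in CTR, with 4 at an unadjusted p under 0.05, and 2 lower in ELS.

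Astrocyte markers ranged from 302 to 503 CPM in CTR-PBS and from 483 to 618 CPM in CTR-LPS. The microglial marker P2ry12 ranged from 12500 to 16170 CPM and from 6942 to 12230 CPM, but not all microglial markers examined fell. Most of the astrocyte sum was Slc1a3, with means of 356 CPM in CTR-PBS and 549.6 CPM in CTR-LPS. Gfap was at 1.28 and 2.03 CPM, Aqp4 at 0.394 and 0.300 CPM and Aldh1l1 at 0.912 and 0.483 CPM. The part of these markers in the LPS results was not tested.

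ELS did not change a member past the threshold in any comparison. At P9 0 of 49 members were called (0.0% of all genes) by edgeR, and 4 had an unadjusted p under 0.05, against 5.47% of all genes. Between ELS-PBS and CTR-PBS 0 were called (0.156% of all genes) and 4 had an unadjusted p under 0.05, against 9.71%. Between ELS-LPS and CTR-LPS 0 were called (0.0% of all genes) and 3 had such a p, against 4.78%. In the test of whether the age change differed between ELS and CTR 0 were called (0.0299% of all genes) and 7 had such a p, against 10.3%. In the test of whether the LPS change differed 0 were called (0.0% of all genes) and 3 had such a p, against 5.87%. DESeq2 called 0 members in the first 4 of these comparisons and 1, Mcm10, in the last.

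The members with the smallest p at P9 were Rpa3 (log2 fold change 0.53, SE 0.20, adjusted p = 0.888), Pcna (0.28, SE 0.12, adjusted p = 0.906) and Gins4 (0.30, SE 0.13, adjusted p = 0.908). Rpa3 ran from 9.68 to 19.8 CPM in P9-CTR and from 12.4 to 73.7 CPM in P9-ELS, and Pcna from 102 to 152 CPM and from 120 to 316 CPM. The highest P9-ELS values of all 3 genes came from replicate 5, 1 of the libraries with few genes. Without P9-ELS replicates 5 and 6 the means were 17.22 ± 3.60 CPM for Rpa3, 132 ± 9.62 CPM for Pcna and 35.2 ± 3.38 CPM for Gins4 (SD, n = 11).

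In the adult PBS mice the smallest p was that of Rfc4, a clamp loader subunit. It ran from 5.81 to 19.4 CPM (median 7.75) in CTR-PBS and from 4.31 to 6.75 CPM (median 5.23) in ELS-PBS, which overlapped, with a log2 fold change of -0.85 and an SE of 0.31 (adjusted p = 0.271). The highest CTR-PBS value was that of replicate 1, and without it the mean was 7.83 ± 1.99 CPM (SD, n = 6). Rfc4 also had the smallest p in the test of the age change between conditions (-1.297, SE 0.38, adjusted p = 0.258), followed by Gins4 (-0.60, SE 0.23, adjusted p = 0.353) and Gins1 (-1.05, SE 0.42, adjusted p = 0.368). In P9-ELS Rfc4 was 175 CPM in replicate 5 and at most 41.2 CPM in the others, and without the 3 libraries with few genes the difference of the age change between conditions was -0.61 for Rfc4, -0.29 for Gins4 and -0.50 for Gins1. Pole (1.83, SE 0.83, adjusted p = 0.438) and Mcm10 (2.75, SE 1.297, adjusted p = 0.468) followed in the adult PBS mice, both with adult levels near 0. Each of these values turned on 1 mouse. Of the 153 counts of Pole in ELS-PBS 126 were in replicate 1, and without it the log2 fold change was 0.015. All 11 counts of Mcm10 in ELS-PBS were in replicate 5, and without it the log2 fold change was -1.12.

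After LPS the smallest p values between ELS and CTR were those of Ccne1 (3.33, SE 1.01, adjusted p = 0.707), Mcm10 (-3.95, SE 1.26, adjusted p = 0.748) and Dut (0.85, SE 0.40, adjusted p = 1.0). Ccne1 had 2 counts in all CTR-LPS mice and 16 in all ELS-LPS mice, a ratio of 13.8 per total count (95% exact counting interval 3.25 to 124). The interval covers counting error only and not the spread between mice. The 16 counts were in 2 of 5 ELS-LPS mice, with 8 in each and 3 mice at 0. In the test of the LPS change between conditions these were Mcm10 (-6.70, SE 1.85, adjusted p = 0.281), Gins4 (0.67, SE 0.27, adjusted p = 0.665) and Cdc45 (1.71, SE 0.81, adjusted p = 0.806). Cdc45 ran from 1.56 to 3.14 CPM in CTR-PBS and from 0 to 3.01 CPM in CTR-LPS, and from 0 to 2.48 CPM in ELS-PBS, while the ELS-LPS mice ran from 1.3005 to 4.39 CPM. Without ELS-PBS replicate 5 the value of Mcm10 was -2.82. Ccne1, Mcm10 and Cdc45 are near the lower end of the adult levels, where counts are few, whereas Gins4 ran from 21.04 to 60.5 CPM over all adult mice.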

How the data were processed

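Microglia from 50 mice were sequenced as poly-A RNA. Per the labels and the study's methods, the authors trimmed reads with cutadapt 2.10, aligned them to GRCm39 with STAR 2.5.4, counted unique exonic reads per gene with HTSeq 0.11.0, and deposited these raw counts without normalization. The annotation release and the strand setting are not given in the sources used here. Exon overlaps and promoters were taken from GENCODE M39, and lengths are of its canonical transcripts.

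All 6 group means were fitted to all mice with edgeR 4.0.16 (TMM, quasi-likelihood test, R 4.3.3) after the filter on low counts, and contrasts were tested. SEs were derived from the F statistics. Group comparisons rest on the spread between mice, and counts near 0 limit the precision of low genes. Shares of subunits were compared with exact permutation tests. The members and lists were chosen with earlier results of these data known. Mouse labels hold a number in front of a point, which was taken as the nest. Alternatives were DESeq2 1.42.0, edgeR with the DESeq2 size factors or with a likelihood-ratio test, 2 other filters, a fit of only the groups compared, nest sums of the counts, voom in limma 3.58.1 with a random nest effect, no fold threshold, leaving out the 3 libraries with few genes or single adult mice, and nest as a replicate block. Levels, overlaps and shares without the 3 libraries were added after seeing the data. Full statistics are given for the members with the largest and smallest age change in each role and for those called, or with the 3 smallest p, in the other comparisons. From the other lists, the 3 largest age changes and up to 6 called genes were named. Of the microglial markers examined, 1 is not reported here, and sums that hold it were left out.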

Additional observations from a re-analysis of the deposited data

Results flagged for a closer look

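In 8 of the 52 sets of values examined (12 members and the summed level in the 4 adult groups), the highest mouse stood apart from the others of its group by Dixon's criterion, which chance meets in about 1 in 20 sets. Gins4 was 60.5 CPM in CTR-PBS replicate 1, a library with 12854 genes detected, and between 24.9 and 37.7 CPM in the other mice. Tk1 was 5.95 CPM in ELS-PBS replicate 3 and between 1.09 and 2.40 CPM in the others. Orc1 was 1.79 CPM in CTR-LPS replicate 3, against 0 to 0.487 CPM. Cdt1 was 12.5 CPM in ELS-LPS replicate 3, against 1.25 to 2.98 CPM, and Rfc2 was 268 CPM in the same mouse, against 140 to 165 CPM. Mcm10 was 0.0713 CPM in CTR-PBS replicate 5, 0.527 CPM in ELS-PBS replicate 5 and 0.0549 CPM in ELS-LPS replicate 4, where all other mice of these groups were at 0. With all others at 0, a single mouse above 0 always meets the criterion, so the rate of 1 in 20 does not apply to these Mcm10 sets.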

How the results depend on the processing

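The age comparisons gave 38 to 45 called members in CTR and 40 to 44 in ELS over the alternatives, and 39 to 41 and 40 to 41 when single adult mice were left out, but not always the same genes. In CTR the call of Pola2 was lost with filterByExpr, with nest sums, without the 3 libraries with few genes and without CTR-PBS replicate 1 or 6, and that of Orc1 with nest sums. In ELS the call of Rfc3 was lost without a filter, with filterByExpr, with voom, without the 3 libraries and without ELS-PBS replicate 2, 3 or 4, that of Rpa3 without the 3 libraries and that of Pold1 with nest sums. After LPS in CTR 1 of the 4 members was called (Cdt1) when only the groups compared were fitted, 2 (Cdt1 and Mcm10) with counts summed per nest and 1 (Cdt1) with the nest as a replicate block. After LPS in ELS 1 of the 2 was called, namely Tk1 without a filter and when only the groups compared were fitted, and Cdt1 with the nest as a replicate block, which ended the call of Tk1. Leaving out single mice gave 4 to 5 called members in CTR and 1 to 3 in ELS. The LPS by condition interaction gave 1 called member (Mcm10) with the likelihood-ratio test and with DESeq2, and 0 with the replicate block and without single mice. The causes were not tested. Mice of 1 nest deviated together only weakly (mean correlation 0.078), and the labels do not define the nest. Of 830 values of named genes under alternatives 806 kept their side of the adjusted p threshold, 20 lost it and 4 gained it. Of the values that passed in the main fit 0 changed sign. The sign of values that did not pass was not compared. Some of these changed, such as Mcm10 between ELS-PBS and CTR-PBS (2.75, at the lowest -1.12). Members with a few counts, such as Mcm10 and Ccne1 in the adult, are limited by depth.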
